A study of Homo sapiens with 12 samples.

Results

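The 2-oxoglutarate-dependent dioxygenases were followed in control and OGDH-depleted A375 cells, an established human melanoma line, with and without glucose. The set was a fixed list of 57 gene names out of the 61209 in the count table. The rule for the list goes by enzyme function and uses no measured value, but earlier results of these data were known when it was chosen. OGDH is part of the dehydrogenase complex that turns 2-oxoglutarate into succinyl-CoA in the tricarboxylic acid cycle, and so draws on the co-substrate of these enzymes. RNA was sequenced from 4 groups of 3 libraries: OGDH-depleted cells starved of glucose for 5 h, OGDH-depleted cells with glucose (fed), control cells starved of glucose for 5 h, and control cells with glucose (fed). The sample titles call the depleted cells "OGDH KO" and the series text speaks of a knockdown, so they are called OGDH-depleted here. The labels do not say how the gene was targeted, whether the depleted cells were 1 clone, what the control cells carried or whether replicates were cultured apart. The p-values therefore measure the spread between these libraries, which may be technical.

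The dioxygenases share a chemistry. Each binds ferrous iron and uses molecular oxygen and 2-oxoglutarate to hydroxylate its substrate, and releases succinate and carbon dioxide; in demethylases the hydroxylated methyl group then leaves as formaldehyde. Succinate and fumarate compete with 2-oxoglutarate for the active site. By this route the JmjC proteins remove methyl groups from histone lysines, the TET enzymes oxidise 5-methylcytosine in DNA, FTO and the ALKBH proteins act on methylated bases in RNA and DNA, the EGLN enzymes mark the hypoxia-inducible factors (HIF) for destruction, and the P4HA, P3H and PLOD enzymes modify collagen. The study measured mRNA only, and neither enzyme activity nor metabolite levels were analysed here.

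Levels are given as CPM (counts scaled to a common library size with TMM, the trimmed mean of M values), and they compare 1 gene between libraries. A level is a share of the counted RNA, so fewer cells that express a gene and less RNA per cell cannot be told apart. A gene is called where the adjusted p of edgeR's quasi-likelihood test was under 0.05 over the 18526 genes tested, and every adjusted p below is of that test unless another is named. Of the 57 members, 55 passed the filter on low counts. The other members, EGLN3 and P4HTM, were not tested.

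Libraries held 21556273 to 25546615 counted fragments, of which 0.313% to 0.379% fell on the 57 members. OGDH, measured to check the labels, had 32.3, 33.9 and 32.3 CPM in starved OGDH-depleted cells and 38.1, 45.1 and 36.3 CPM in fed OGDH-depleted cells. It had 129, 133 and 130 CPM in starved control cells and 156, 142 and 166 CPM in fed control cells. The depleted and control libraries did not overlap, under starvation (log2 fold change -1.99, SE 0.10, adjusted p = 3.5e-07) or with glucose (log2 fold change -1.96, SE 0.10, adjusted p = 8.6e-06). Replicate 3 of starved OGDH-depleted cells, replicate 3 of starved control cells and replicate 2 of fed control cells stood apart: over the members, the SD of the log2 difference from the group partners was 0.46, 0.48 and 0.56 in them, against 0.10 to 0.37 elsewhere. Over all tested genes that SD was 0.492, 0.587 and 0.595 in them, against 0.279 to 0.462 elsewhere. The 0.462 was in starved OGDH-depleted replicate 1, so replicate 3 of that group stood apart less clearly. The share of mitochondrially encoded transcripts was 9.71% in starved OGDH-depleted replicate 3, against 3.06% and 5.12% in its partners. It was 4.11% in starved control replicate 3, against 14.4% and 13.2% in its partners, and 14.6% in fed control replicate 2, against 4.97% and 6.35%. In fed OGDH-depleted cells it was 5.16% to 6.98%. What part these differences have in the results below was not tested, and results are given with all 12 libraries and, where stated, without these 3.

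The labelled cell type was checked against fixed markers. Of the melanocyte lineage factors, SOX10 was at 299 to 670 CPM and MITF at 23.5 to 49.3 CPM, whereas the pigment genes PMEL, MLANA, TYR and DCT were at or near 0 CPM in all 12 libraries. S100B, S100A1 and TYRP1 reached at most 1.82, 2.93 and 2.79 CPM, so SOX10 made up most of the sum of the 9 melanocyte markers. That sum was 540 to 619 CPM in starved and 583 to 705 CPM in fed OGDH-depleted cells, and 340 to 430 CPM in starved and 611 to 715 CPM in fed control cells. The keratin KRT18 made up nearly all of the epithelial list, which summed to 337 to 381 CPM in starved and 289 to 310 CPM in fed OGDH-depleted cells, and to 722 to 759 CPM in starved and 294 to 299 CPM in fed control cells. Markers of blood and endothelium stayed under 1.2 CPM in sum, and those of fibroblasts under 8.8 CPM. Both the melanocyte sum, mostly SOX10, and the keratin level of starved control cells stood apart from those of the other groups, and what part this has in the members' values was not tested.

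To compare genes with each other, counts were divided by the exon length given in the table and expressed as TPM, a length-scaled share of a library. The collagen lysyl hydroxylases PLOD1 and PLOD3 had the highest mean levels, 222 and 207 TPM over the 12 libraries, followed by P4HA1 at 59.7 TPM, KDM6B at 59.2 TPM and ALKBH5 at 55.9 TPM. Of the 57 members, 37 averaged over 10 TPM and 5 under 1 TPM: P4HA3, OGFOD2, P3H2, EGLN3 and P4HTM. The median was 16.6 TPM over the 55 tested members and 7.55 TPM over all tested genes. Fragments on bases that exons of 2 or more gene names share were left out by the authors' counting, so members with such bases are under-measured. This touched over 50% of the exon bases of 3 members, OGFOD2 (78.7%), EGLN1 (55.8%) and JMJD4 (53.8%), and 48.8% of those of KDM4A. In all, 9 members had over 25% shared, the rest being JMJD8 (37.5%), EGLN2 (30.6%), RIOX2 (27.9%), ALKBH4 (25.6%) and ALKBH6 (25.1%). The values of these members below carry this limit.

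Starvation of OGDH-depleted cells asked how the enzymes respond to 5 h without glucose when OGDH is low. The histone demethylases KDM3A and KDM5B rose, and the histone demethylase PHF2, the ribosomal oxygenase RIOX1, the DNA demethylation enzyme TET3 and the HIF prolyl hydroxylase EGLN2 fell. These are 2 of 55 tested members higher (3.64%) and 4 lower (7.27%), against 2.42% of all tested genes higher and 4.76% lower. The median log2 fold change was 0.0040 over the members and 0.020 over all tested genes.

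Starvation of control cells asked the same where OGDH is intact. Members called higher were KDM2A, KDM4A, KDM4C, KDM5B, KDM6A, KDM6B, KDM7A, JMJD1C, RIOX2, JMJD6, TET3, ALKBH3 and P3H2, and those called lower were KDM2B, KDM3B, KDM4D, HIF1AN, TET1, ALKBH6, ALKBH8 and P3H3. These are 13 of 55 higher (23.6%) and 8 lower (14.5%), against 17% of all tested genes higher and 17.5% lower. The median log2 fold change was 0.027 over the members and -0.023 over all tested genes. KDM5B was called higher in both starvation comparisons, TET3 was called in both with opposite sign, and no other member was called in both.

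OGDH loss under starvation compared the starved groups. Members called higher in depleted cells were KDM3B, KDM4D, RIOX1, ALKBH8 and FTO, and those called lower were KDM5B, KDM6A, KDM6B, KDM7A, PHF2, JMJD1C, JMJD6, TET3 and EGLN2. These are 5 of 55 higher (9.09%) and 9 lower (16.4%), against 13.7% and 15% of all tested genes. The median log2 fold change was -0.016 over the members and 0.0042 over all tested genes.

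OGDH loss with glucose moved few members. RIOX1 was higher in depleted cells, and KDM3A and TET1 were lower. These are 1 of 55 higher (1.82%) and 2 lower (3.64%), against 1.59% and 1.45% of all tested genes. The median log2 fold change was 0.033 over the members and -0.014 over all tested genes.

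The interaction is the starvation response of depleted cells minus that of control cells, on the log2 scale. KDM3A, KDM4D, TET1 and ALKBH8 had positive values, and KDM4A, KDM6B, KDM7A, PHF2, JMJD6, TET3 and EGLN2 had negative ones. These are 4 of 55 positive (7.27%) and 7 negative (12.7%), against 8.30% and 8.95% of all tested genes. Shares this near to those of all genes are no result about the dioxygenases as a set, and what follows is about single members. In all, 26 members were called in at least 1 of the 5 comparisons, 29 in none, and 2 were not tested. The share of all tested genes called in at least 1 comparison was not computed, so these counts only describe the list.

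**Figure D1:**
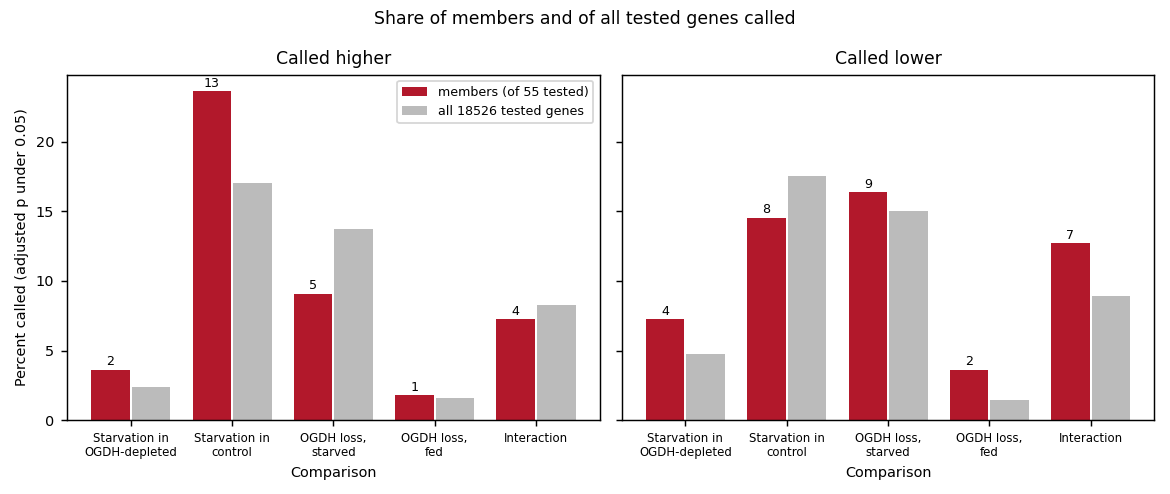
Percent called (vertical axis, adjusted p under 0.05) among the 55 tested members (red, with their number above the bar) and among all 18526 tested genes (grey), higher on the left and lower on the right, for the 5 comparisons. For starvation in control cells 23.6% of members against 17% of all genes were higher and 14.5% against 17.5% lower.

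**Figure D2:**
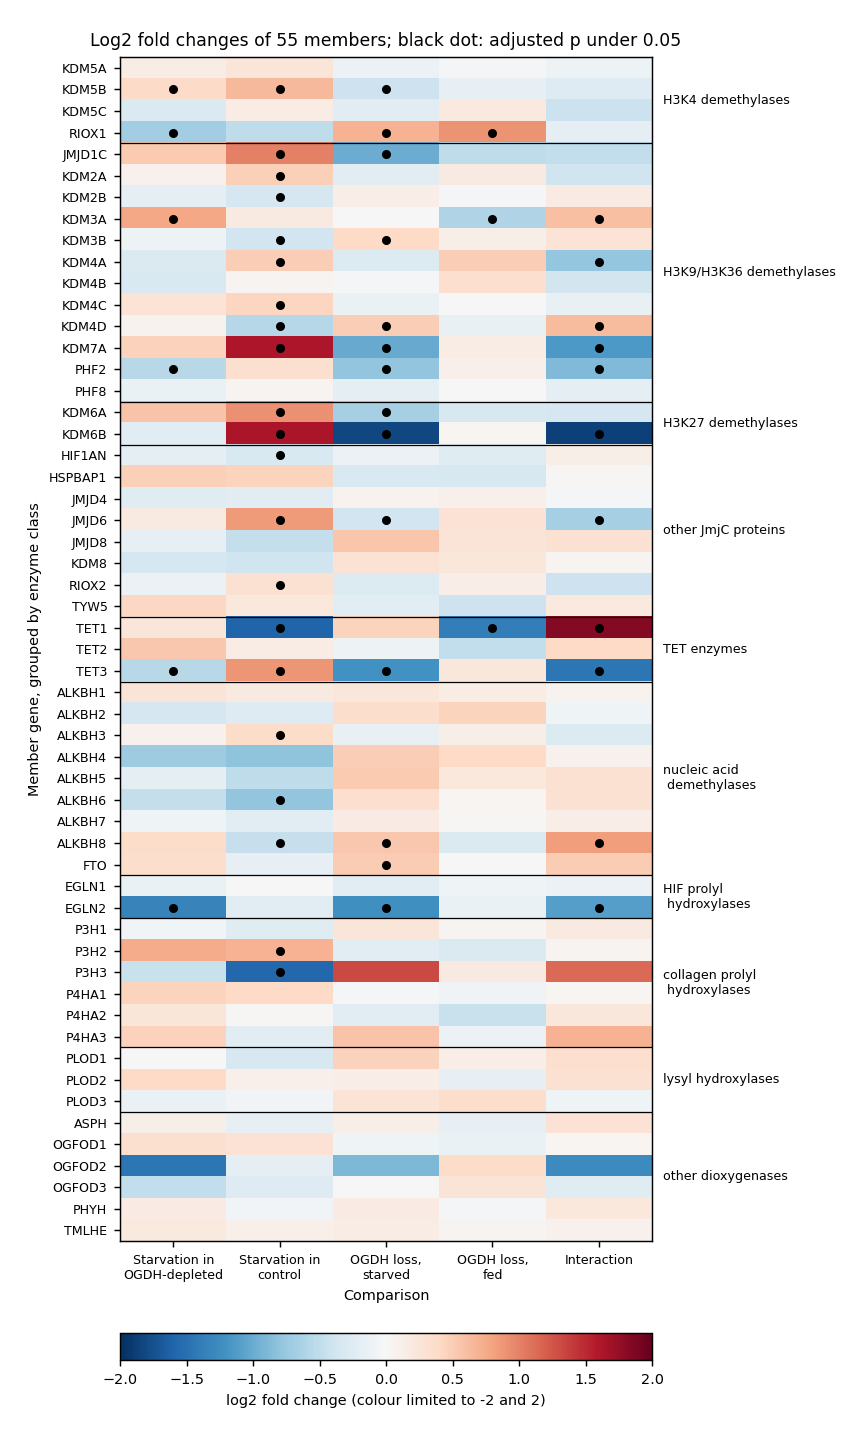
Log2 fold changes of the 55 tested members (rows, by enzyme class) in the 5 comparisons (columns), red for higher and blue for lower in the group named first, with the colour scale limited to -2 and 2. Black dots mark an adjusted p under 0.05; the strongest colours are those of KDM6B, KDM7A, TET1, TET3, P3H3, EGLN2 and OGFOD2, and the last of these has no dot.

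Promoter sequences are shown for 4 members on which the results turn: TET3, called with opposite sign in the 2 starvation comparisons, KDM6B, which had the largest negative interaction, KDM3A, which differed between the fed groups, and EGLN2, which was lowest in starved OGDH-depleted cells. The sequences are RefSeq's (GRCh38.p14), from 250 bases before to 50 bases after the start that RefSeq gives, read along the gene. For KDM3A and EGLN2 that start lies inside the gene's span in the count table's annotation, whose coordinates are printed with the results, and for TET3 and KDM6B the starts are the same. Capitals mark the letters ACGTG and GCGTG on either strand, which form the core of the sequence that HIF binds; a CACGTG holds the first of them on both strands.
TET3, chr2:73984660-73984959, plus strand: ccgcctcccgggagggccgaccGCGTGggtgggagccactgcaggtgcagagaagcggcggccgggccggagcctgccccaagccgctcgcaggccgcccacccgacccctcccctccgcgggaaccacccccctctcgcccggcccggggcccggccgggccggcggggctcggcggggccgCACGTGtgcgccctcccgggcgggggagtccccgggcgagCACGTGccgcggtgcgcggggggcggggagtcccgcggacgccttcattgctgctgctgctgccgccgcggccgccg
KDM6B, chr17:7833967-7834266, plus strand: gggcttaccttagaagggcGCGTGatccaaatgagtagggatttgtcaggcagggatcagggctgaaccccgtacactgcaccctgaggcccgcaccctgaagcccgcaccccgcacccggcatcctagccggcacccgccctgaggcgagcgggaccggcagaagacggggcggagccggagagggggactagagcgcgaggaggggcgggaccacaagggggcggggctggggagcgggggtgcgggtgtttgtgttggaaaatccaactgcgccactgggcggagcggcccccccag
KDM3A, chr2:86441121-86441420, plus strand: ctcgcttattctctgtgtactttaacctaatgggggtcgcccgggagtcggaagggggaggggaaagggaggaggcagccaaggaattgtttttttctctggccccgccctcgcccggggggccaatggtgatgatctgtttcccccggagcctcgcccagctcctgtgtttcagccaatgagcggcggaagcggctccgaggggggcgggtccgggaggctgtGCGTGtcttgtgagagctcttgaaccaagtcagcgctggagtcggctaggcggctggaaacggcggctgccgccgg
EGLN2, chr19:40798941-40799240, plus strand: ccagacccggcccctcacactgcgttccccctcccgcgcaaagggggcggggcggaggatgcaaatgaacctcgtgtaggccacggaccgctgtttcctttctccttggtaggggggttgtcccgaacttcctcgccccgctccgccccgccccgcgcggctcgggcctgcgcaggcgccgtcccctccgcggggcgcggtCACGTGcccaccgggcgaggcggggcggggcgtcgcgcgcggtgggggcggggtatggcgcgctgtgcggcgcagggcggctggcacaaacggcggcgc

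Both CACGTG and GCGTG were found in the TET3 window, CACGTG in that of EGLN2, and GCGTG in those of KDM6B and KDM3A. RefSeq promoters were matched by symbol for 52 of the 57 members; the others were RIOX1, RIOX2, JMJD6, ASPH and P4HA3. On either strand, ACGTG was in 12 of the 52 windows (23.1%), against 24.98% of the 17076 promoters of tested genes, and GCGTG was in 31 (59.6%), against 47.4%. The AP-1 letters TGANTCA were in 3 (5.77%), against 5.71%. The letters TGATGCAA and TGATGAAA, bound by C/EBP and ATF dimers, and the ER stress element were each in 0 of the 52, against 0.562%, 0.633% and 0.117%. The median number of CG dinucleotides in a window was 24 in members and 24 in tested genes. A match is only a match of letters, and its absence concerns only this window.

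The TET enzymes oxidise 5-methylcytosine, the first step of active DNA demethylation. TET3 (chromosome 2, 73984910 to 74108176, hg38), whose promoter is printed above, had 63.5, 58.8 and 59.6 CPM in starved OGDH-depleted cells and 85.3, 95.6 and 87.3 CPM in fed OGDH-depleted cells. It had 138, 143 and 140 CPM in starved control cells and 74.4, 76.9 and 77.9 CPM in fed control cells. The 4 groups did not overlap: starved control cells were highest and starved depleted cells lowest. With starvation TET3 fell in depleted cells (log2 fold change -0.56, SE 0.08, adjusted p = 0.0021) and rose in control cells (log2 fold change 0.88, SE 0.08, adjusted p = 9.4e-06). It was lower in depleted than in control cells under starvation (log2 fold change -1.21, SE 0.08, adjusted p = 1.5e-06), the fed groups stood at 0.23 (adjusted p = 0.18), and the interaction was -1.44 (SE 0.11, adjusted p = 1.3e-05). All 4 calls held in every alternative that was run, and without the 3 libraries the interaction was -1.45.

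TET1 (chromosome 10, 68560337 to 68694487), a scarce transcript here, had 2.87, 2.37 and 4.20 CPM in starved and 2.36, 2.91 and 2.73 CPM in fed OGDH-depleted cells. It had 2.41, 2.53 and 1.98 CPM in starved and 4.76, 9.99 and 6.15 CPM in fed control cells. Fed control cells stood above the other 9 libraries, with the highest value in replicate 2, a library that stood apart. TET1 fell with starvation in control cells (log2 fold change -1.60, SE 0.29, adjusted p = 0.0012) and was lower in depleted than in control cells with glucose (log2 fold change -1.38, SE 0.28, adjusted p = 0.023). The interaction was 1.83 (SE 0.40, adjusted p = 0.0094). Leaving out the 3 libraries gave smaller values that were still called, at -1.15, -1.04 and 1.11. The call with glucose was lost when fed control replicate 3 or any 1 of the fed OGDH-depleted libraries was left out (adjusted p up to 0.12).

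TET2, the third family member, had 24.4, 29.8 and 38.8 CPM in starved and 21.7, 22.3 and 20.0 CPM in fed OGDH-depleted cells. It had 38.3, 37.0 and 24.0 CPM in starved and 21.7, 42.6 and 25.6 CPM in fed control cells, and the control groups overlapped through the libraries that stood apart. It was called in none of the 5 comparisons with all 12 libraries. Without the 3 libraries it was called higher with starvation in control cells (0.66, adjusted p = 0.00037) and lower in depleted cells under starvation (-0.50, adjusted p = 0.0031).

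KDM6B and KDM6A remove methyl groups from histone H3 lysine 27, the mark of Polycomb repression. KDM6B (chromosome 17, 7834217 to 7854796) had 81.2, 86.4 and 115 CPM in starved and 108, 118 and 106 CPM in fed OGDH-depleted cells. It had 395, 358 and 249 CPM in starved and 91.7, 130 and 99.7 CPM in fed control cells. Starved control cells lay above all other libraries, and the other 3 groups overlapped. KDM6B rose in control cells (log2 fold change 1.64, SE 0.20, adjusted p = 7.1e-05, a 3.11-fold change) and stood at -0.23 in depleted cells (SE 0.19, adjusted p = 0.47). It was lower in depleted cells under starvation (log2 fold change -1.82, SE 0.20, adjusted p = 4.9e-05), with an interaction of -1.87 (SE 0.27, adjusted p = 0.00080). These 3 calls held in every alternative. Without the 3 libraries the interaction was -2.39, and KDM6B was also called lower with starvation in depleted cells (-0.42, adjusted p = 0.0034).

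KDM6A had 52.5, 65.6 and 73.6 CPM in starved and 44.5, 45.9 and 38.5 CPM in fed OGDH-depleted cells, against 109, 119 and 75.0 CPM in starved and 43.8, 68.4 and 48.5 CPM in fed control cells. Within each cell type the starved libraries lay above the fed ones. It rose with starvation in control cells (log2 fold change 0.91, SE 0.21, adjusted p = 0.0051) and was lower in depleted cells under starvation (log2 fold change -0.66, SE 0.21, adjusted p = 0.032). The second call was lost without replicate 1 or 2 of either starved group (adjusted p up to 0.12). In depleted cells the starvation value was 0.57 (adjusted p = 0.12), and the interaction of -0.34 was not called (adjusted p = 0.49; -0.86 and adjusted p = 0.0012 without the 3 libraries).

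**Figure D3:**
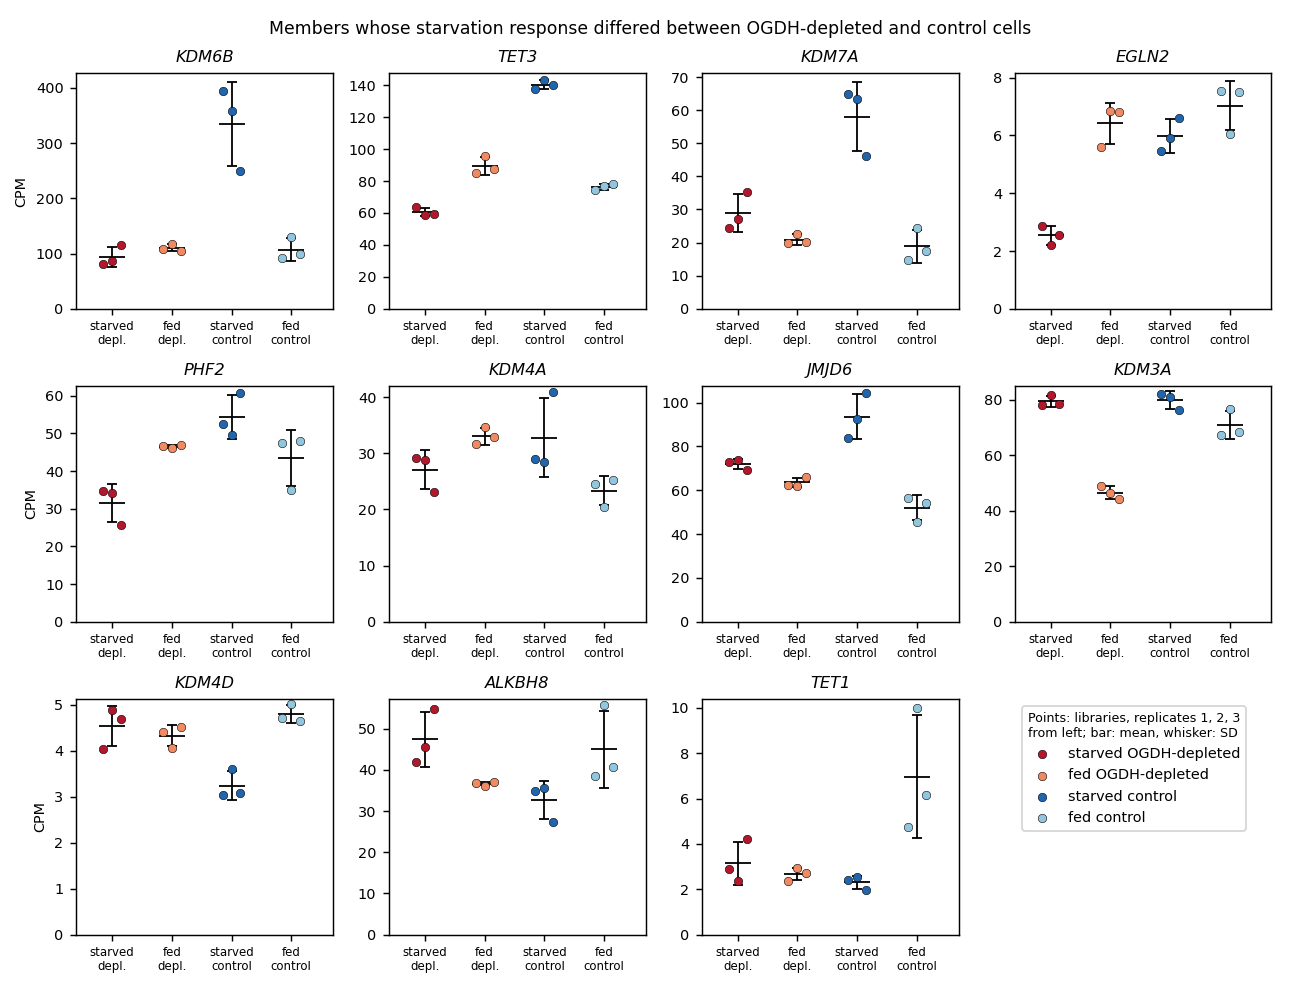
CPM in each library (points, replicates 1 to 3 from left), with the group mean (bar) and SD (whisker, n = 3), of the 11 members called in the interaction, in starved OGDH-depleted, fed OGDH-depleted, starved control and fed control cells. KDM6B reached 249 to 395 CPM in starved control cells and 81.2 to 130 CPM in the other groups; EGLN2 was 2.21 to 2.87 CPM in starved OGDH-depleted cells and 5.44 to 7.53 CPM elsewhere.

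Demethylases of histone H3 lysine 9 and lysine 36 made up the largest class, with 12 members, all tested. In starvation of control cells 5 of the 12 were higher and 3 lower, against 17% and 17.5% of all tested genes. In starvation of depleted cells 1 of the 12 was higher and 1 lower (2.42% and 4.76% of all genes). Under OGDH loss with starvation 2 were higher and 3 lower (13.7% and 15%), and with glucose 1 was lower (1.45%). In the interaction 2 of the 12 were positive and 3 negative (8.30% and 8.95%). With so few members these counts are a description. KDM7A (chromosome 7, 140084746 to 140176983), which removes methyl groups from lysines 9 and 27, had 24.4, 27.2 and 35.2 CPM in starved and 20.0, 22.7 and 20.0 CPM in fed OGDH-depleted cells. It had 64.8, 63.3 and 46.2 CPM in starved and 14.6, 24.4 and 17.6 CPM in fed control cells, so that starved control cells lay above all other libraries. KDM7A rose in starved control cells (log2 fold change 1.62, SE 0.21, adjusted p = 0.00012), was lower in depleted cells under starvation (-1.005, SE 0.20, adjusted p = 0.0033) and had an interaction of -1.15 (SE 0.29, adjusted p = 0.018). All 3 calls held in every alternative; in depleted cells the starvation value was 0.47 (adjusted p = 0.19).

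KDM3A (chromosome 2, 86440647 to 86492716) removes lysine 9 methyl groups and is a known HIF target; its promoter is printed above. It had 78.1, 81.7 and 78.6 CPM in starved and 49.0, 46.4 and 44.3 CPM in fed OGDH-depleted cells. It had 82.3, 81.1 and 76.4 CPM in starved and 67.4, 76.6 and 68.5 CPM in fed control cells. Fed depleted cells lay below all other libraries, and the starved groups overlapped. KDM3A rose with starvation in depleted cells (log2 fold change 0.77, SE 0.09, adjusted p = 0.00041), where control cells stood at 0.18 (adjusted p = 0.14; 0.26 and adjusted p = 0.0078 without the 3 libraries). It was lower in depleted cells with glucose (log2 fold change -0.60, SE 0.09, adjusted p = 0.0042) and stood at -0.01 under starvation (SE 0.09). Its interaction was 0.60 (SE 0.12, adjusted p = 0.0060). The 3 calls held in every alternative.

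PHF2 (chromosome 9, 93576584 to 93679587), a lysine 9 demethylase, had 34.7, 34.2 and 25.8 CPM in starved and 46.5, 46.2 and 46.8 CPM in fed OGDH-depleted cells. It had 52.5, 49.5 and 60.8 CPM in starved and 47.4, 35.0 and 48.1 CPM in fed control cells. Starved depleted and starved control cells did not overlap, and PHF2 was lower in the depleted ones (log2 fold change -0.78, SE 0.15, adjusted p = 0.0024). It fell with starvation in depleted cells (log2 fold change -0.56, SE 0.15, adjusted p = 0.046), a call lost when any 1 library of these 2 groups was left out (adjusted p up to 0.22). Its interaction of -0.88 (SE 0.21, adjusted p = 0.015) was -0.54 without the 3 libraries (adjusted p = 0.00082).

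JMJD1C, a relative of KDM3A, had 72.0, 75.7 and 110 CPM in starved and 60.5, 61.8 and 57.1 CPM in fed OGDH-depleted cells. It had 193, 193 and 129 CPM in starved and 58.6, 125 and 72.7 CPM in fed control cells. In the starved groups and in fed control cells the value farthest from its partners was in a library that stood apart. JMJD1C rose in starved control cells (log2 fold change 1.01, SE 0.27, adjusted p = 0.012; 1.55 without the 3 libraries) and was lower in depleted cells under starvation (-0.997, SE 0.27, adjusted p = 0.015; -1.41 without them). Leaving out fed control replicate 3 ended the first call (adjusted p = 0.054), and leaving out replicate 1 or 2 of either starved group ended the second (adjusted p up to 0.064). The interaction of -0.49 was not called with 12 libraries (adjusted p = 0.44) and was called without the 3 (-1.26, adjusted p = 1.9e-05).

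The KDM4 enzymes remove tri- and dimethyl marks from lysine 9 and, in part of the family, lysine 36. KDM4A (chromosome 1, 43650149 to 43705518) had 29.2, 28.9 and 23.1 CPM in starved and 31.6, 34.6 and 32.8 CPM in fed OGDH-depleted cells. It had 28.9, 28.5 and 40.9 CPM in starved and 24.5, 20.4 and 25.2 CPM in fed control cells. Starved control replicate 3 alone stood above the range of the depleted cells. KDM4A rose in starved control cells (log2 fold change 0.49, SE 0.16, adjusted p = 0.031) with an interaction of -0.78 (SE 0.22, adjusted p = 0.032). The first call was lost without any 1 of the fed control libraries and, at 0.30, without starved control replicate 3 (adjusted p = 0.11). The interaction call was lost without starved OGDH-depleted replicate 2 or 3, fed control replicate 2, starved control replicate 3 or any 1 fed OGDH-depleted library (adjusted p up to 0.095). Both values were smaller without the 3 libraries, at 0.20 and -0.40, and still called.

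KDM4D (chromosome 11, 94973709 to 94999519), which acts on lysine 9, was scarce, with 54 to 121 counts in a library. It had 4.03, 4.87 and 4.70 CPM in starved and 4.40, 4.06 and 4.52 CPM in fed OGDH-depleted cells. It had 3.03, 3.60 and 3.07 CPM in starved and 4.72, 5.02 and 4.65 CPM in fed control cells, and starved control cells lay below all other libraries. KDM4D fell in starved control cells (log2 fold change -0.57, SE 0.13, adjusted p = 0.0061), a call that held in every alternative. It was higher in depleted cells under starvation (log2 fold change 0.49, SE 0.13, adjusted p = 0.017; adjusted p = 0.064 without the 3 libraries), a call also lost without starved OGDH-depleted replicate 2 or starved control replicate 1 or 3 (adjusted p up to 0.068). Its interaction was 0.63 (SE 0.18, adjusted p = 0.036). The adjusted p of that value was 0.075 without the 3 libraries and 0.031 to 0.091 with single libraries left out, where the call held without starved OGDH-depleted replicate 1 or starved control replicate 2 and was lost without any 1 of the other 10.

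The other members of the class changed less. KDM2A, a lysine 36 demethylase of CpG islands, rose in starved control cells (log2 fold change 0.48, SE 0.09, adjusted p = 0.0016), and its relative KDM2B fell (-0.33, adjusted p = 0.045). KDM4C rose by 0.43 (adjusted p = 0.0019). KDM3B fell in starved control cells by 0.38 (adjusted p = 0.011) and was higher in depleted cells under starvation (0.40, adjusted p = 0.0093). KDM4B and PHF8 were called in none of the comparisons with 12 libraries; without the 3, PHF8 was called lower in depleted cells under starvation (-0.31, adjusted p = 0.014) and in the interaction (-0.36). The KDM2B call was lost without replicate 1 or 2 of starved or 1 or 3 of fed control cells (adjusted p up to 0.17), and that of KDM3B in control cells without starved control replicate 1 (adjusted p = 0.052). KDM4B stood at 0.06 for starvation in control cells and turned to -0.47 without the 3 libraries, where it was called lower (adjusted p = 0.0094).

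The lysine 4 class held 4 members, all tested. KDM5B, a lysine 4 demethylase, had 116, 119 and 125 CPM in starved and 94.4, 94.6 and 87.7 CPM in fed OGDH-depleted cells. It had 165, 168 and 150 CPM in starved and 97.5, 117 and 95.0 CPM in fed control cells, and in both cell types the starved libraries lay above the fed ones. KDM5B rose in both, in depleted cells (log2 fold change 0.38, SE 0.10, adjusted p = 0.039) and in control cells (log2 fold change 0.64, SE 0.10, adjusted p = 0.00042), with an interaction of -0.26 that was not called (adjusted p = 0.24; -0.45 and adjusted p = 0.0023 without the 3 libraries). The call in depleted cells was lost without any 1 library of the 2 groups (adjusted p up to 0.15). Under starvation KDM5B was lower in depleted cells (log2 fold change -0.42, SE 0.10, adjusted p = 0.0077).

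RIOX1, which hydroxylates a ribosomal protein and has been described as a histone demethylase, had 20.6, 19.5 and 14.2 CPM in starved and 29.6, 30.6 and 28.2 CPM in fed OGDH-depleted cells. It had 9.65, 9.46 and 14.3 CPM in starved and 17.2, 13.3 and 16.9 CPM in fed control cells. Fed depleted cells lay above all other libraries, and the starved groups overlapped in replicate 3. RIOX1 was higher in depleted cells with glucose (log2 fold change 0.90, SE 0.19, adjusted p = 0.026) and under starvation (log2 fold change 0.70, SE 0.19, adjusted p = 0.016), and fell with starvation in depleted cells (log2 fold change -0.70, SE 0.18, adjusted p = 0.044). The call with glucose was lost without any 1 library of the fed groups (adjusted p up to 0.11), that under starvation without replicate 1 or 2 of either group (adjusted p up to 0.066), and that for starvation without any library but starved OGDH-depleted replicate 1 (adjusted p up to 0.20). Without the 3 libraries all 3 were called, at 0.78, 1.05 and -0.57, and RIOX1 also fell with starvation in control cells (-0.84, adjusted p = 1.4e-05). KDM5A and KDM5C, which act on the same mark as KDM5B, were called in none of the comparisons with 12 libraries. For starvation in control cells KDM5A was at 0.24 with 12 libraries and was called at 0.40 without the 3, and KDM5C was at 0.14 and turned to -0.23, where it was called lower (adjusted p = 0.032).

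Of the 8 other JmjC proteins, 2 were higher and 1 lower with starvation in control cells, against 17% and 17.5% of all tested genes. Under OGDH loss with starvation 1 was lower (15% of all genes), and 1 had a negative interaction (8.95%). JMJD6 (chromosome 17, 76712832 to 76726799), a lysyl hydroxylase of splicing factors, had 73.0, 73.9 and 69.4 CPM in starved and 62.6, 62.1 and 65.9 CPM in fed OGDH-depleted cells. It had 83.8, 92.6 and 105 CPM in starved and 56.6, 45.5 and 54.2 CPM in fed control cells, and starved control cells lay above all other libraries. JMJD6 rose in starved control cells (log2 fold change 0.85, SE 0.11, adjusted p = 0.00013), was lower in depleted cells under starvation (-0.38, SE 0.11, adjusted p = 0.022) and had an interaction of -0.66 (SE 0.15, adjusted p = 0.012). The first of these calls held in every alternative, and the second was lost without any 1 starved OGDH-depleted library or starved control replicate 2 or 3 (adjusted p up to 0.10).

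HIF1AN hydroxylates an asparagine of the HIF alpha subunits and so limits their activity. It fell in starved control cells (log2 fold change -0.30, SE 0.09, adjusted p = 0.028), with 69.0 to 81.6 CPM in starved against 88.0 to 94.3 CPM in fed control libraries. RIOX2, another ribosomal oxygenase, rose in starved control cells by 0.30 (adjusted p = 0.035). The HIF1AN call was lost without replicate 1 or 2 of starved or 1 or 3 of fed control cells, and the RIOX2 call without replicate 2 or 3 of starved or 1 or 3 of fed control cells (adjusted p up to 0.11 for each). KDM8, JMJD4, JMJD8, HSPBAP1 and TYW5 were not called with 12 libraries, at log2 fold changes of -0.48 to 0.56. Without the 3 libraries all 5 were called for starvation in control cells: KDM8 at -0.95, JMJD4 at -0.71 and JMJD8 at -0.88 lower, and HSPBAP1 at 0.87 and TYW5 at 0.52 higher. With 12 libraries these values were -0.40, -0.21, -0.48, 0.45 and 0.22.

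The nucleic acid demethylases numbered 9, all tested. FTO, which removes N6-methyladenosine and related marks from RNA, had 50.3, 56.98 and 59.8 CPM in starved and 42.9, 44.1 and 44.2 CPM in fed OGDH-depleted cells. It had 38.8, 41.4 and 36.8 CPM in starved and 40.8, 51.3 and 39.2 CPM in fed control cells, and the starved groups did not overlap. FTO was higher in depleted cells under starvation (log2 fold change 0.51, SE 0.12, adjusted p = 0.0064), a call that held in every alternative. Its interaction was 0.52 (SE 0.16, adjusted p = 0.053).

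ALKBH5, the other N6-methyladenosine demethylase, had 80.8, 72.8 and 54.7 CPM in starved and 80.5, 78.6 and 78.6 CPM in fed OGDH-depleted cells. It had 36.4, 43.4 and 65.6 CPM in starved and 74.8, 55.1 and 76.1 CPM in fed control cells, where replicate 3 of the starved and replicate 2 of the fed group crossed over. It was called in none of the comparisons, at -0.50 for starvation in control cells (adjusted p = 0.093). On leaving out the 3 libraries it was called there (-0.93, adjusted p = 4.7e-06), under OGDH loss with starvation (0.92) and in the interaction (0.86, adjusted p = 0.00018).

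ALKBH8 (chromosome 11, 107502727 to 107565742), which modifies the wobble uridine of transfer RNAs, had 41.8, 45.5 and 54.8 CPM in starved and 36.8, 36.2 and 37.1 CPM in fed OGDH-depleted cells. It had 34.8, 35.7 and 27.4 CPM in starved and 38.5, 55.8 and 40.6 CPM in fed control cells, with the highest fed control value in replicate 2. ALKBH8 was higher in depleted cells under starvation (log2 fold change 0.54, SE 0.16, adjusted p = 0.026), fell with starvation in control cells (-0.46, adjusted p = 0.043) and had an interaction of 0.83 (SE 0.23, adjusted p = 0.026). Without fed control replicate 2 the value in control cells was -0.28 (adjusted p = 0.13), and without the 3 libraries the values were 0.29, -0.17 and 0.40, of which the second was not called. Single libraries also ended these calls: for starvation in control cells any 1 starved control library, for OGDH loss under starvation starved OGDH-depleted replicate 2 or 3 or starved control replicate 3 (adjusted p up to 0.077), and for the interaction any 1 fed OGDH-depleted library (adjusted p up to 0.063).

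In control cells starvation raised ALKBH3, a repair enzyme for alkylated bases, by 0.36 (adjusted p = 0.027), and lowered ALKBH6 (log2 fold change -0.78, SE 0.19, adjusted p = 0.0069), which had only 21 to 75 counts in a library. The ALKBH3 call was lost without replicate 1 or 2 of starved or 1 or 3 of fed control cells (adjusted p up to 0.10). ALKBH1, ALKBH2, ALKBH4 and ALKBH7 were not called in any comparison with 12 libraries. ALKBH4 and ALKBH7 moved far on leaving out the 3 libraries: for starvation in control cells ALKBH4 was at -0.80 with 12 libraries (adjusted p = 0.063) and -1.24 without the 3 (adjusted p = 6.0e-05), and ALKBH7 at -0.23 (adjusted p = 0.75) and -1.18 (adjusted p = 0.0068). ALKBH2 was at -0.25 with 12 libraries and was called at -0.66 without the 3.

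The HIF prolyl hydroxylases sense oxygen by marking HIF alpha subunits for destruction. EGLN2 (chromosome 19, 40798996 to 40808434), whose promoter is printed above, had 2.87, 2.21 and 2.55 CPM in starved and 5.60, 6.84 and 6.80 CPM in fed OGDH-depleted cells. It had 5.44, 5.91 and 6.61 CPM in starved and 7.53, 6.06 and 7.49 CPM in fed control cells. Starved depleted cells lay below all other libraries, which overlapped. EGLN2 fell with starvation in depleted cells (log2 fold change -1.33, SE 0.16, adjusted p = 0.00059), where control cells stood at -0.23 (adjusted p = 0.26; -0.41 and adjusted p = 0.038 without the 3 libraries). It was lower in depleted cells under starvation (log2 fold change -1.23, SE 0.16, adjusted p = 0.00016), with an interaction of -1.10 (SE 0.22, adjusted p = 0.0048). The 3 calls held in every alternative. The level rests on 53 to 190 counts in a library, and 30.6% of the exon bases are shared with other gene names, mainly the read-through gene RAB4B-EGLN2, so it is uncertain.

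EGLN1, the main oxygen sensor of the family, had 23.0, 18.6 and 13.2 CPM in starved and 20.0, 20.7 and 19.2 CPM in fed OGDH-depleted cells. It had 17.5, 17.4 and 28.1 CPM in starved and 25.6, 14.8 and 23.2 CPM in fed control cells. The groups overlapped and no comparison called it; its interaction was -0.12 with 12 libraries and 0.53 without the 3 (adjusted p = 0.014). EGLN3, a HIF target itself, was not tested, with 2, 2 and 3 counts in starved and 8, 2 and 1 in fed OGDH-depleted cells, and 8, 13 and 18 in starved and 6, 3 and 2 in fed control cells. P4HTM, a membrane-bound relative, had 1 to 7 counts in each library.

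The collagen prolyl hydroxylases hold 6 members, all tested. P3H3, of the prolyl 3-hydroxylase family, had 31.8, 21.5 and 13.2 CPM in starved and 27.5, 28.6 and 34.4 CPM in fed OGDH-depleted cells. It had 5.95, 5.05 and 15.4 CPM in starved and 35.99, 11.98 and 31.6 CPM in fed control cells. The control groups overlapped in starved replicate 3 and fed replicate 2. P3H3 was called lower in starved control cells (log2 fold change -1.58, SE 0.49, adjusted p = 0.026). The call was lost without replicate 1 or 2 of starved or 1 or 3 of fed control cells (adjusted p up to 0.098), and the value was -2.27 without starved control replicate 3. Without the 3 libraries it was -2.63 (SE 0.20), and OGDH loss under starvation (2.26, adjusted p = 4.3e-06) and the interaction (2.43, adjusted p = 2.3e-05) were called as well.

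P4HA1, a catalytic subunit of collagen prolyl 4-hydroxylase, had 65.9, 74.6 and 78.3 CPM in starved and 52.8, 54.7 and 52.6 CPM in fed OGDH-depleted cells. It had 77.0, 82.9 and 62.1 CPM in starved and 46.7, 68.7 and 52.3 CPM in fed control cells. Starved depleted cells lay above fed ones, and the control groups overlapped. The starvation values were 0.45 (adjusted p = 0.095) and 0.40 (adjusted p = 0.056), and without the 3 libraries both were called (0.38, adjusted p = 0.0062 in depleted and 0.68, adjusted p = 3.1e-05 in control cells). P3H2, at 13 to 36 counts in a library, was called higher in starved control cells (0.69, adjusted p = 0.026), a call lost without fed control replicate 1 or 2 or starved control replicate 3 (adjusted p up to 0.12) and without the 3 libraries (adjusted p = 0.14). P4HA2, P4HA3 and P3H1 were not called with 12 libraries. Without the 3, P3H1 was called lower with starvation in control cells (-0.44, against -0.25 with 12), and P4HA2, at 0.03 there with 12, turned to -0.30 and was called lower (adjusted p = 0.030).

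The lysyl hydroxylases PLOD1, PLOD2 and PLOD3 prepare collagen for cross-linking. PLOD2 had 68.7, 72.6 and 81.0 CPM in starved and 56.3, 54.3 and 57.5 CPM in fed OGDH-depleted cells, against 72.2, 72.2 and 58.4 CPM in starved and 55.1, 75.96 and 58.3 CPM in fed control cells. Starved depleted cells lay above fed ones, and the control groups overlapped. None of the 3 genes was called with 12 libraries, at log2 fold changes of -0.33 to 0.46 over the 5 comparisons, and leaving out the 3 libraries called PLOD2 higher with starvation in both cell types (0.31 and 0.34) and PLOD3 lower with starvation in control cells (-0.25, against -0.05 with 12). PLOD1, the most abundant member, was called without them for starvation in control cells (-0.74, adjusted p = 6.5e-06), OGDH loss under starvation (0.82, adjusted p = 5.2e-06) and the interaction (0.88, adjusted p = 4.7e-05).

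Of the 6 remaining dioxygenases, ASPH (chromosome 8), OGFOD1, OGFOD2, OGFOD3, PHYH and TMLHE, none was called with 12 libraries. OGFOD2 had the lowest value, -1.45 for starvation in depleted cells (SE 0.44, adjusted p = 0.076), from 3 to 38 counts in a library, and was called without the 3 libraries (-1.08, adjusted p = 0.031). OGFOD1 and OGFOD3 were then called for starvation in control cells, at 0.69 and -0.66, against 0.29 and -0.25 with 12 libraries. PHYH, which starts the breakdown of branched fatty acids, TMLHE, which starts carnitine synthesis, and ASPH had log2 fold changes of -0.17 to 0.29 in the 5 comparisons. These 3, ALKBH1 and P4HA3 were called neither with 12 libraries nor without the 3.

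**Figure D4:**
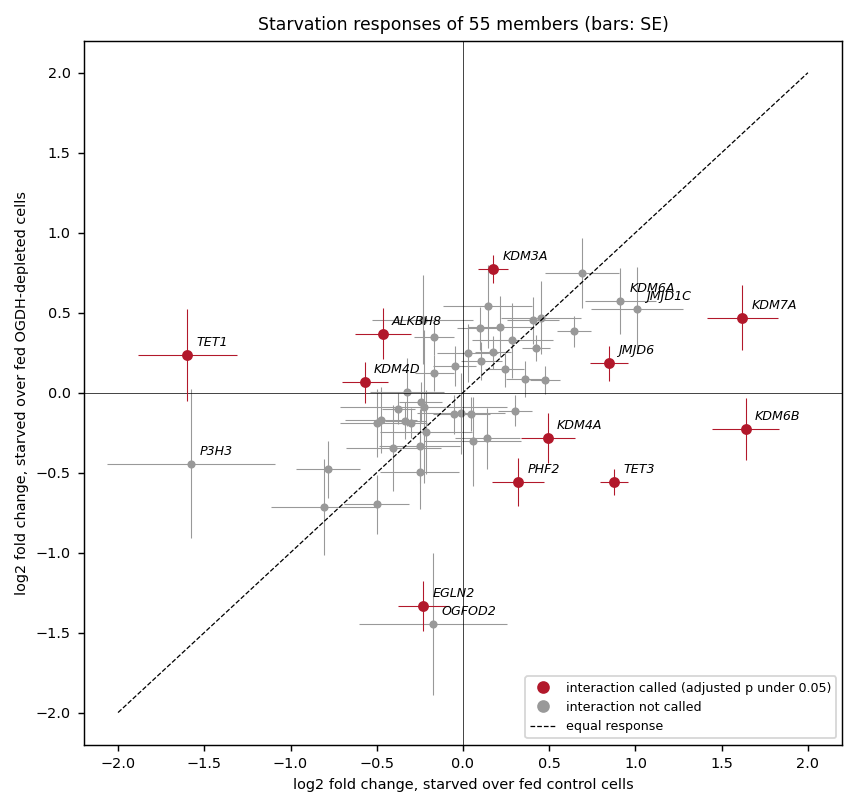
Log2 fold change of starvation in OGDH-depleted cells (vertical axis) against that in control cells (horizontal axis) for the 55 tested members, with SE bars; the dashed line marks equal responses and red points are the 11 members called in the interaction. KDM6B, KDM7A and TET3 lie far below the line, with 1.64, 1.62 and 0.88 in control cells and -0.23, 0.47 and -0.56 in depleted cells; TET1 lies above it, with -1.60 and 0.23.

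Leaving out the 3 libraries that stood apart raised the number of called members in every comparison. There were 10 higher and 8 lower of 55 for starvation in depleted cells, against 7.004% and 10.6% of all tested genes, and 20 and 24 for starvation in control cells, against 30.5% and 30.0%. There were 18 and 18 for OGDH loss under starvation, against 24.6% and 28.0%, 5 and 4 for OGDH loss with glucose, against 5.89% and 4.87%, and 17 positive and 18 negative for the interaction, against 20.1% and 22.9%. Taking out libraries far from their group lowers the spread by construction, so these counts are set beside the main ones and do not replace them. Of the 55 calls with 12 libraries, 28 held in every alternative, 27 were lost in at least 1, and 0 changed sign.

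**Figure D5:**
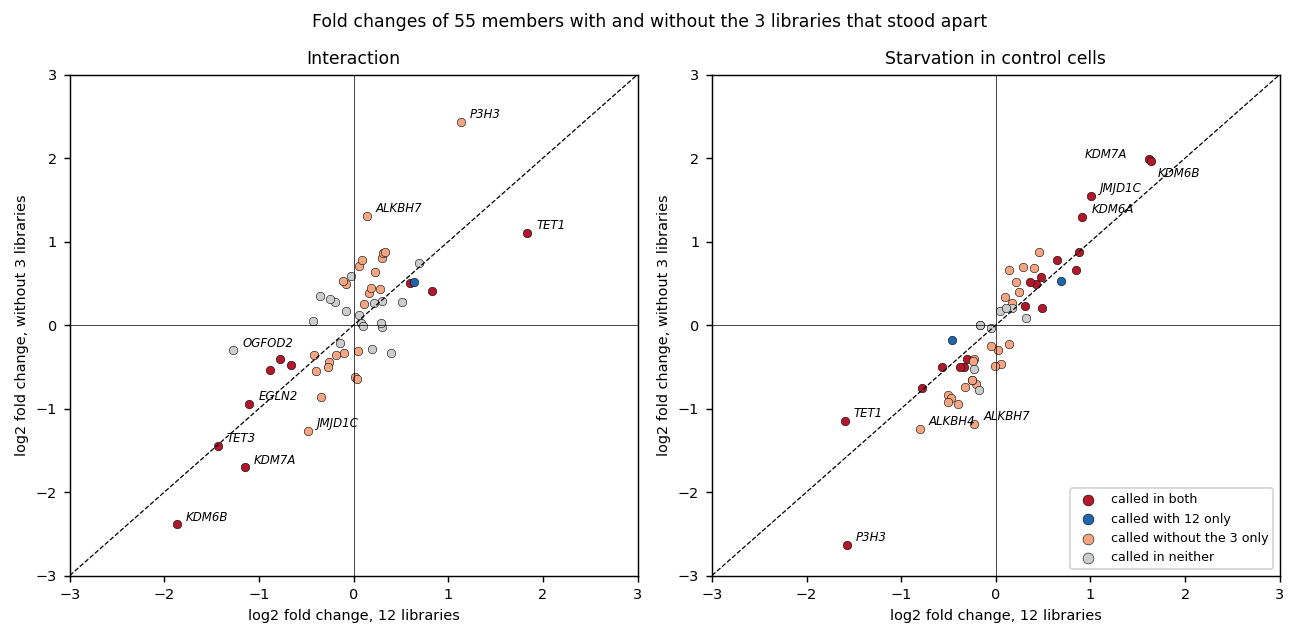
Log2 fold changes of the 55 tested members without the 3 libraries that stood apart (vertical axis) against those with 12 libraries (horizontal axis), for the interaction (left) and for starvation in control cells (right); the dashed line marks equal values and colours give in which fit a member was called. In the interaction P3H3 was at 2.43 without the 3 libraries and 1.13 with all 12, KDM6B at -2.39 and -1.87, and TET3 at -1.45 and -1.44.

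The genes that make and use 2-oxoglutarate were given from a list of 24, of which 23 were tested. In starvation of control cells 4 of the 23 were higher and 2 lower, against 17% and 17.5% of all tested genes, and in starvation of depleted cells 1 was lower, against 4.76%. Under OGDH loss with starvation 2 were higher and 3 lower (13.7% and 15% of all genes), and with glucose 2 higher and 1 lower (1.59% and 1.45%), OGDH itself among the lower ones of both. For starvation in control cells the higher share was near that of all genes and the lower share was below it. GOT1, the cytosolic aspartate aminotransferase, rose with starvation in control cells (1.43, adjusted p = 1.9e-05) and had an interaction of -1.43 (adjusted p = 0.00060). PSAT1, a transaminase of serine synthesis that releases 2-oxoglutarate, was higher in depleted cells with glucose (0.84, adjusted p = 0.0024). It also rose with starvation in control cells (0.78, adjusted p = 0.00021) and had an interaction of -0.74 (adjusted p = 0.0060). DHTKD1, a relative of OGDH, fell with starvation in control cells (-0.90, adjusted p = 0.00075). In the interaction 2 of the 23 were called positive and 3 negative, against 8.30% and 8.95% of all tested genes. A list of genes that make or remove succinate and fumarate held 8, all tested. Of these, SDHD, a subunit of succinate dehydrogenase, was called higher in depleted cells under starvation (0.49, adjusted p = 0.015), against 13.7% of all tested genes. SDHD was also called positive in the interaction, against 8.30%, and the other 7 were called in none of the comparisons.

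The HIF system and its targets, 14 genes outside the members, rose in 2 cases with starvation in depleted cells and in 7 with starvation in control cells, against 2.42% and 17% of all tested genes. Under starvation 5 of the 14 were lower in depleted cells, against 15%. The median log2 fold changes were 0.34, 0.70 and -0.28, against 0.020, -0.023 and 0.0042 over all tested genes. EPAS1, which encodes HIF2 alpha, had 3.92, 4.62 and 3.51 CPM in starved and 3.76, 3.62 and 2.91 CPM in fed OGDH-depleted cells. It had 17.5, 17.5 and 15.99 CPM in starved and 2.89, 3.11 and 3.26 CPM in fed control cells, so that starved control cells lay apart from all others. In the interaction 4 of the 14 were called negative and 0 positive, against 8.95% and 8.30% of all tested genes. The value was -2.23 (adjusted p = 3.0e-05) for EPAS1, -1.93 (adjusted p = 9.7e-05) for the growth factor VEGFA and -2.11 (adjusted p = 0.0015) for the peptide hormone ADM. NDRG1 was at -1.55. Among the genes not called were CA9 at 0.27, PDK1 at 0.32 and SLC2A1 at -0.51. Of the 9 members known as HIF targets, 8 were tested, KDM3A was called higher with starvation in depleted cells and KDM4C in control cells, and the median log2 fold changes were 0.26 and 0.077, against 0.020 and -0.023 over all tested genes. No member of the list other than these was called for starvation.

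Of 10 collagen partners of the hydroxylases, 4 were higher and 2 lower with starvation in control cells, against 17% and 17.5% of all tested genes, with a median log2 fold change of 0.15 against -0.023. P4HB, the protein disulfide isomerase that forms prolyl 4-hydroxylase with the P4HA subunits, rose in starved control cells (1.20, adjusted p = 0.00012), as did the collagen chaperone SERPINH1 (1.12) and the prolyl isomerase FKBP14 (1.21). The 2 that fell there were COLGALT1 (-0.92, adjusted p = 0.0017) and P3H4 (-1.01, adjusted p = 0.00060). Under OGDH loss with starvation 3 were higher, COLGALT1, COLGALT2 and P3H4, and 4 lower (13.7% and 15% of all genes). In the interaction 4 were called with negative values (8.95%), P4HB among them (-1.19, adjusted p = 0.0029).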

How the data were processed

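RNA-seq counts per gene name were deposited by the authors in 1 table of 12 libraries. Per the file headers they are fragment counts over exons from featureCounts 2.0.1 without a strand option, so a gene and its antisense partner cannot be told apart; reads on several genes were left out. The annotation is of hg38, and Subread is named, per the submitters' processing notes; the aligner is not given in the sources used here. Groups came from the sample labels. In R 4.3.3, edgeR 4.0.16 filterByExpr (minimum count 10, minimum total 15) kept 18526 of 61209 genes, which hold 99.9% of the counts. Libraries were scaled by TMM, 1 quasi-likelihood model with 4 group means was fitted and 5 contrasts were tested, with Benjamini-Hochberg adjustment over all tested genes and a threshold of 0.05. SE is the fold change over the square root of F. The fit was tested on simulated counts. Alternatives were RLE and upper-quartile scaling, no filter or a minimum count of 50, DESeq2 1.42.0, a fit on the compared groups, a replicate block, leaving out each library, and leaving out 3 together. The members, lists, tests and the 3 libraries left out were chosen with earlier results of these data known. Values per library are given for OGDH, members called in the interaction or at an absolute log2 fold change of at least 1, the 3 members of smallest p in a contrast with fewer than 3 of these, and EGLN1, EGLN3, KDM3A, KDM6B, TET2, FTO, ALKBH5, P4HA1 and PLOD2. KDM6A and KDM5B were added after their values were seen.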

Additional observations from a re-analysis of the deposited data

Results flagged for a closer look

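The starvation response of 11 members differed between OGDH-depleted and control cells by the interaction test of the 4-group model. The log2 difference, the response of depleted cells minus that of control cells, was positive for TET1 (1.83), ALKBH8 (0.83), KDM4D (0.63) and KDM3A (0.60). It was negative for KDM6B (-1.87), TET3 (-1.44), KDM7A (-1.15), EGLN2 (-1.10), PHF2 (-0.88), KDM4A (-0.78) and JMJD6 (-0.66). The values for KDM3A, KDM6B, KDM7A, PHF2, TET1, TET3 and EGLN2 passed the threshold in every alternative that was run, and those for KDM4A, KDM4D, JMJD6 and ALKBH8 did not.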

How the results depend on the processing

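Of the 55 member calls, 28 held in every alternative, 27 were lost in at least 1 and 0 changed sign. Among members not called with 12 libraries, 9 values turned sign and passed the threshold on leaving out the 3 libraries, and the cause was not tested: KDM4B -0.47, KDM5C -0.23 and P4HA2 -0.30 for starvation in control cells, KDM4B 0.46 for OGDH loss under starvation, and HSPBAP1 -0.63, ALKBH2 0.50, EGLN1 0.53, P4HA1 -0.31 and OGFOD1 -0.65 in the interaction. Leaving out those 3 gave, for all genes and members, 3313 and 18 calls for starvation in depleted cells, 11364 and 44 for the same in control cells, 9874 and 36 for OGDH loss under starvation, 2021 and 9 for OGDH loss with glucose, and 8077 and 35 in the interaction. With 12 libraries these were 1330 and 6, 6400 and 21, 5310 and 14, 563 and 3, and 3196 and 11. DESeq2 called 2031 genes and 11 members for starvation in depleted cells and 1157 genes for OGDH loss with glucose. A fit on the compared groups called 12 members for starved against fed control cells, 9 for OGDH loss under starvation and 206 genes for OGDH loss with glucose.

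With single libraries left out, 583 to 1151 genes and 3 to 4 members were called for starvation in depleted cells, fewest without starved OGDH-depleted replicate 2 or 3 or any fed OGDH-depleted library. The ranges were 5037 to 7527 and 14 to 29 for starved against fed control cells, 4030 to 5388 and 9 to 15 for OGDH loss under starvation, 172 to 397 and 1 to 2 for OGDH loss with glucose, and 2293 to 3319 and 8 to 12 in the interaction. The replicate block called 3 members for starvation in depleted cells and 342 genes for OGDH loss with glucose, and moved no other count by over 1.5 times. Replicate numbers do not pair the libraries: 7 of 18 same-numbered pairs correlated above 0.1 (-0.69 to 0.64), and 5 of 12 libraries correlated best with their own number. Depth limits EGLN3 and P4HTM, which were not tested, and leaves EGLN2, TET1, KDM4D, ALKBH6, P3H2 and OGFOD2 on few counts.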

Other observations

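Enzymes that write the marks removed by the members were listed too. Of 18 histone lysine methyltransferases, 5 fell with starvation in OGDH-depleted cells. Among them were SETD1B (-1.60, adjusted p = 2.5e-05), KMT2D (-1.47, adjusted p = 1.4e-05) and KMT2B (-0.67, adjusted p = 0.0093), which methylate lysine 4. Other lysine 4 methyltransferases, KMT2A (-0.11), KMT2C (0.28) and SETD1A (-0.32), were not called there. Of all tested genes 4.76% fell there, and the median log2 fold change was -0.25 over the list against 0.020. With starvation in control cells 1 rose and 7 fell, including the lysine 9 methyltransferase EHMT2 (-2.12, adjusted p = 0.0037), against 17% and 17.5% of all tested genes. The interaction was called negative for 4 of the 18, against 8.95% of all tested genes, with -1.75 for SETD1B and -1.15 for KMT2D. Of 13 writers and readers of DNA and RNA methylation, 2 were higher and 0 lower in depleted cells under starvation, against 13.7% and 15% of all tested genes. These were METTL3 (0.60) and METTL14 (0.68), which write N6-methyladenosine, while WTAP of the same list was at -0.19 and not called. Of 12 collagen chains, 10 were tested. With starvation in control cells 0 were higher and 2 lower, against 17% and 17.5% of all tested genes. Under OGDH loss with starvation 3 were higher and 0 lower, against 13.7% and 15%. COL4A1 fell with starvation in control cells (-0.94) and was higher in depleted cells under starvation (0.80). JARID2, a JmjC protein without demethylase activity, rose with starvation in control cells (1.41) and had an interaction of -1.43.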
